A study of Mus musculus with 8 samples.

Results

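The genes described here belong to the Notch pathway. They are the receptors Notch1, Notch2 and Notch3, the ligands Dll1, Jag1 and Jag2, the nuclear effector Rbpj, and the targets Hes1, Hes5 and Hey1. They are 10 of the 21887 protein-coding genes on the main mouse chromosomes, picked by name with earlier peak results of these lists known, and each was examined over its RefSeq gene body and 1 kb on either side in the mm10 build. The peaks come from ChIP-seq on cultured primary neural progenitor cells of the hippocampus from male C57BL/6 mice, for which the labels name no allele, agent or age. Mgea5 is the O-GlcNAcase, which strips the sugar O-GlcNAc from intracellular proteins. Panx2 is a pannexin, a family of membrane channel proteins, and Polr1c is a subunit common to RNA polymerases I and III. Each protein has 2 replicate libraries with a deposited peak list each, and 2 input libraries complete the 8 samples. A peak list gives positions of enriched DNA and no RNA, so the labelled cell type could not be checked against marker expression.

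Notch receptors span the cell membrane and are cut when a ligand of the Delta or Jagged kind on a neighbouring cell binds them. The freed intracellular part moves to the nucleus, joins the DNA-binding protein RBPJ with Mastermind coactivators, and turns on genes such as Hes1, Hes5 and Hey1. The proteins of these genes are transcriptional repressors that hold down proneural genes, and in the hippocampus the pathway is known for keeping neural stem cells undifferentiated.

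The lists differ greatly in length and most of their peaks are weak. They held 145405 to 536877 peaks for Mgea5 and Panx2, called as broad peaks with median folds of 1.71 to 1.84. Polr1c was called as narrow peaks, 826 for replicate 1 (median fold 3.05) and 35927 for replicate 2 (2.75). Fold is the authors' value for each peak, the ratio of ChIP signal to background, and folds of different lists are not compared. Where sites or genes are ranked over both replicates, the geometric mean of the 2 folds is used for ordering only, and for Panx2 it spans both calling runs. The directories in the peak names show that Panx2 and Polr1c replicate 1 were called in a different run from the other 4 lists, so for Panx2 and Polr1c replicate and calling run cannot be told apart. Read depth is not known from peak lists.

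Polr1c marked a few Notch genes near their transcription starts, all in replicate 2. The strongest site lay on the promoter of Rbpj, with a fold of 10.5, and weaker sites lay just inside Notch3 (4.22), Jag2 (3.98) and Notch2 (3.34). Mgea5 and Panx2 peaks were spread over nearly all of the genes with folds below 3, and none of them had a q of at most 0.01. Few protein-coding genes had such a peak: 0.429% and 0.498% in Mgea5 replicates 1 and 2, and 0.00457% and 0.905% in those of Panx2. Peaks of both replicates were present at 9 of 10 genes for Mgea5, at 5 for Panx2 and at 0 for Polr1c. The share among all protein-coding genes was 82% for Mgea5, 57.1% for Panx2 and 1.28% for Polr1c. By this count the Notch genes lie near the background for all 3 proteins. List by list, a peak was present at 10 and 9 of the genes for Mgea5 replicates 1 and 2 (background 88.8% and 85%), at 5 and 10 for Panx2 (59.5% and 88.6%), and at 0 and 6 for Polr1c (1.48% and 42.6%). No test was made of these counts, because each protein has only 2 lists and the genes were chosen with earlier results known. Without replicate 1 the Panx2 count was 10 and the Polr1c count 6, and without replicate 2 they were 5 and 0, so replicate 1 sets both.

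**Figure D1:**
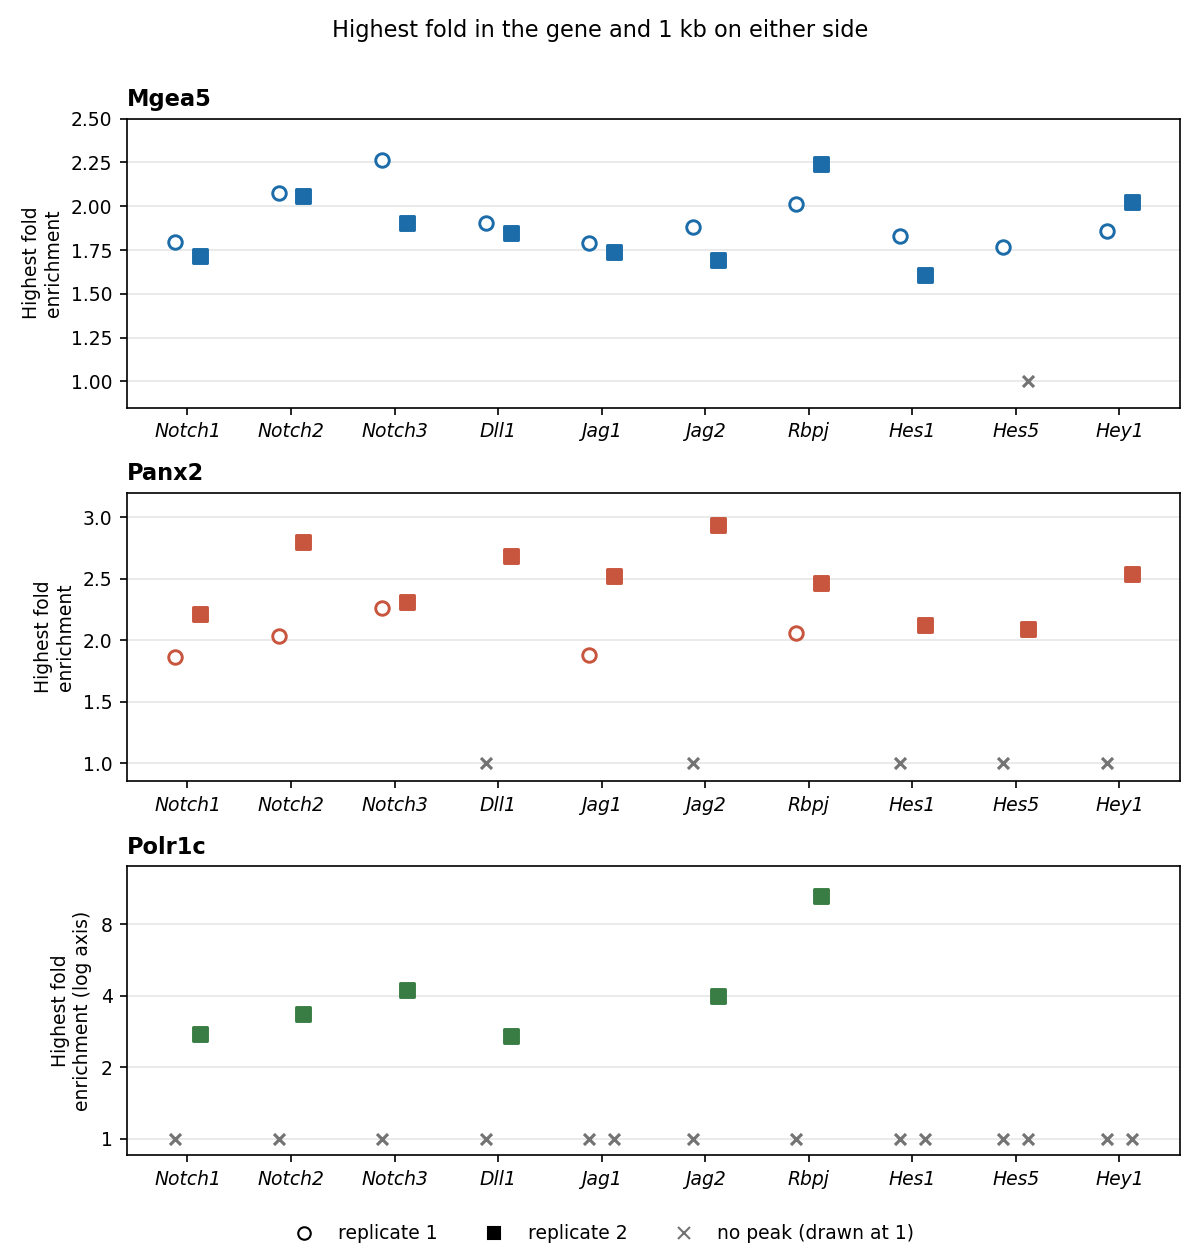
Highest fold enrichment (vertical axis, log scale for Polr1c) at each Notch gene and 1 kb on either side, for replicate 1 (open circles) and replicate 2 (filled squares) of each protein. Crosses drawn at 1 mark genes with no peak in that list. Rbpj stands out in Polr1c replicate 2 at 10.5, and no gene has a Polr1c peak in replicate 1.

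The share of genes with a peak rose with gene length. Of genes under 5 kb, such as Hes1, Hes5 and Hey1, 45.1% had Mgea5 peaks of both replicates and 14.3% had Panx2 peaks. Of genes of 5 to 20 kb, the class of Dll1, 87.6% had Mgea5 and 46.1% Panx2 peaks of both replicates. Of genes of 20 to 100 kb (Notch1, Notch3, Jag1 and Jag2) the shares were 95.7% and 82.5%, and of genes of 100 kb and over (Notch2 and Rbpj) 99.6% and 97%. For Polr1c the shares rose from 0.278% through 0.719% and 1.33% to 4.82% across these classes. The Notch genes that lacked a Panx2 peak in replicate 1 were the 3 short targets, Dll1 and Jag2.

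Peaks covered more of the Notch genes than of protein-coding genes in general in 4 of 6 lists. The covered share of the windows was 28.4% against 17.5% in Mgea5 replicate 1, 15.5% against 13.3% in replicate 2, and 28.5% against 16.2% in Panx2 replicate 2. It was 1.20% against 0.421% in Polr1c replicate 2, and 3.49% against 4.84% in Panx2 replicate 1. Polr1c replicate 1 covered nothing in the Notch genes and 0.0111% of all genes. The median of the highest folds at the Notch genes with a peak was 1.87 and 1.85 for Mgea5, against 1.96 and 1.92 for all genes with a peak. For Panx2 it was 2.03 and 2.49 against 1.91 and 2.23, and for Polr1c replicate 2 it was 3.66 against 3.03. These medians were not matched for gene length, and the 5 Notch genes with a Panx2 replicate 1 peak are all 20 kb or longer.

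Among the receptors, Notch3 and Notch2 carried Polr1c peaks just downstream of their starts, and Notch1 carried 1 at its far end. Notch1 (chr2:26457902-26503822, minus strand) is the receptor most studied in neural stem cells. Its highest folds were 1.79 and 1.72 for Mgea5 in replicates 1 and 2, 1.86 and 2.21 for Panx2, and 2.74 in Polr1c replicate 2. That Polr1c peak had a q of 0.781 and lay 97 bp inside the low-coordinate end of the gene, which is its 3′ end and is overlapped there by the lncRNA gene 0610009E02Rik. The annotated start of Notch1 was covered by a Mgea5 replicate 1 peak of 2042 bp (fold 1.73) and a Panx2 replicate 2 peak of 1435 bp (2.18), and replicate 2 of Mgea5 and replicate 1 of Panx2 had no peak there.

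Notch2 (chr3:98013538-98150367, plus strand), the longest of the receptor genes here, had the most Mgea5 (46 and 41) and Panx2 (8 and 47) peaks of the 10 genes, and 5 Polr1c peaks in replicate 2. Its highest folds were 2.08 and 2.06 for Mgea5 and 2.03 and 2.79 for Panx2. The Panx2 replicate 2 peak of highest fold spanned the start of transcription, from −304 to 481 bp relative to it (negative values lie upstream), and its q of 0.0224 was the lowest of any Mgea5 or Panx2 peak at the Notch genes. A Polr1c replicate 2 peak of fold 3.34 (q = 0.0452) began 354 bp after the start and ended 806 bp after it, overlapping that Panx2 peak. At the start of Notch2, then, Panx2 and Polr1c peaks of replicate 2 and a Mgea5 peak of replicate 1 (fold 1.68) lay side by side, with no peak of the other 3 lists.

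Notch3 (chr17:32120820-32166896, minus strand), a receptor also prominent in vascular mural cells, had 17 Mgea5 peaks in each replicate, with highest folds of 2.26 and 1.90. Its highest Panx2 folds were 2.26 and 2.31. In Polr1c replicate 2 it had 6 peaks, the most of any Notch gene, and the highest reached a fold of 4.22 (q = 1.85e-10). This site (chr17:32166000-32166253) lay 637 to 890 bp downstream of the annotated start, inside a Panx2 replicate 2 peak of fold 2.05 and a Mgea5 replicate 1 peak of fold 1.67. It ranked 571st by fold among the 35727 peaks of its list on the main chromosomes.

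Among the ligands, Jag2 and Dll1 carried Polr1c peaks in replicate 2 and Jag1 carried none. Dll1 (chr17:15367354-15376932, minus strand), the Delta-like ligand of neural progenitors, has 2 annotated starts 1109 bp apart. Its highest folds were 1.90 and 1.85 for Mgea5 and 2.68 for Panx2 in replicate 2, while the nearest Panx2 peak of replicate 1 lay 1.96 kb outside the gene. The 2 Polr1c replicate 2 peaks had folds of 2.70 (q = 0.590) and 2.27 (q = 0.997). Relative to the downstream start, the first lay at 717 to 860 bp and the second at −191 to −48 bp, so both sit near a start with a high q. The Mgea5 peaks of highest fold lay beyond the 3′ end, and within the gene body alone the values were 1.68 and 1.55.

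Jag1 (chr2:137081451-137116520, minus strand) encodes a Jagged ligand, and of the 8 Notch genes with an annotated start it was the only one with a Panx2 peak of replicate 1 within 1 kb of it. The peak of replicate 1 (fold 1.88) and that of replicate 2 (2.52) overlapped for 665 bp, at chr2:137116886-137117550, with the nearer end at −366 bp from the start. They were the highest Panx2 peak of the gene in each list, and their q values were 1 and 0.375. The highest Mgea5 folds at Jag1 were 1.79 and 1.74. The nearest Polr1c peak of replicate 2 was 109 kb away.

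Jag2 (chr12:112907803-112929812, minus strand), the second Jagged ligand, had highest Mgea5 folds of 1.88 and 1.70. Its Panx2 fold of 2.94 in replicate 2 was the highest of the Notch genes in that list, in a peak 8465 bp downstream of the annotated start (q = 0.163), and replicate 1 had no Panx2 peak. The microRNA gene Mir6941 (chr12:112920483-112920541) lies inside the peak of fold 2.94. A Panx2 replicate 2 peak of 4320 bp (fold 2.49) ran from −1921 to 2398 bp around the start. Within it lay the strongest Polr1c replicate 2 peak of the gene, at 373 to 581 bp after the start, and its fold was 3.98 (q = 0.0113). The other 3 Polr1c peaks had folds of at most 3.06. The Notch3 and Jag2 sites were alike in position, within 1 kb downstream of a start, and of the pair only that at Notch3 had a q of at most 0.01.

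Rbpj (chr5:53555779-53657445, plus strand) encodes the DNA-binding protein on which signals of all Notch receptors converge. Its highest folds were 2.01 and 2.24 for Mgea5, the latter the highest of the 10 genes in replicate 2, and 2.06 and 2.46 for Panx2, within the range of the other Notch genes. In Polr1c replicate 2, however, it held a pair of strong peaks, with folds of 10.5 (q = 1.59e-40) and 6.78 (q = 2.02e-27). The stronger (chr5:53590274-53590600) ran from −72 to 254 bp relative to the upstream one of 2 annotated starts and covered both, which lie 140 bp apart and well inside the gene record. The weaker (chr5:53589350-53589637) lay at −996 to −709 bp from the same start. By fold the 2 peaks ranked 40th and 108th of 35727 in the list, and Rbpj ranked 41st of 21887 protein-coding genes. No other gene of the RefSeq table overlaps Rbpj.

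The promoter of Rbpj is shown because the strongest Polr1c peak lies on it, and those of Notch2 and Hes5 for comparison: Notch2 has its Polr1c peak downstream of the sequence, and Hes5, a classical target of RBPJ, has none. Each sequence is the RefSeq promoter of GRCm38.p6, from 250 bases before a start to 50 after it, on the strand of the gene. Capitals mark TGGGAA, the core of the RBPJ binding motif, or its reverse complement.
Rbpj, chr5:53590096-53590395, plus strand: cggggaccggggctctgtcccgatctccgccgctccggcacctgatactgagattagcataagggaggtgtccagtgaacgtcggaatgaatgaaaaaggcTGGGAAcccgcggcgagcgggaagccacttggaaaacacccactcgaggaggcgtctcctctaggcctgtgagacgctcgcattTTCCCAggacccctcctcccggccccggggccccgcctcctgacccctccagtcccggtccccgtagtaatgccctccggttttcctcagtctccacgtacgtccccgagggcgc
Hes5, chr4:154960673-154960972, plus strand: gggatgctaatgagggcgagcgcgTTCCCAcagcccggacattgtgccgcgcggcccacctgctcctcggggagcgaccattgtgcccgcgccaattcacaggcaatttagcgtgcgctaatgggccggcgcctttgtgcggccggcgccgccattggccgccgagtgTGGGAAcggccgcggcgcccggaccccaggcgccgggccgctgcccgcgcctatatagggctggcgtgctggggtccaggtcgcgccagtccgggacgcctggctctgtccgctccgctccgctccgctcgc
Notch2, chr3:98013288-98013587, plus strand: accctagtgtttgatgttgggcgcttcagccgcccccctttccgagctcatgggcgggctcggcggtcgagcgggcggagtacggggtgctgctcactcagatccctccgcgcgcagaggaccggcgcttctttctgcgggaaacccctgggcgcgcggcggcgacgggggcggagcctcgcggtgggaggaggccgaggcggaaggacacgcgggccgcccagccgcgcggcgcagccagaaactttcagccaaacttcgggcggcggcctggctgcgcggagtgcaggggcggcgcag
The core began at −149 and −65 bases from the start in this Rbpj promoter, in opposite orientations, and at −226 and −82 bases in Hes5. The Rbpj copy at −65 lay within the Polr1c peak, which begins at −72, and the copy at −149 lay outside it. The core was found in 24.5% of the 21263 protein-coding promoters of the table, so these matches are a description of the sequence and say nothing of binding. It was absent from the promoter windows of Notch1, Notch2, Notch3, Dll1, Jag1 and Jag2.

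The Rbpj sites were not found in Polr1c replicate 1, whose nearest peak was 888 kb from the gene. The replicate 1 list overlapped 26 of the 39 replicate 2 peaks whose fold exceeded that of the Rbpj promoter peak, and not the other 13. Of the 1340 replicate 2 peaks with a q of at most 0.01 on the main chromosomes, 259 were overlapped by replicate 1 and 1081 were not. Whether the length of the replicate 1 list bears on this was not tested. With lists of equal length, Rbpj and Notch3 kept their Polr1c replicate 2 peak of highest fold, and Jag2, Notch2, Dll1 and Notch1 kept no Polr1c replicate 2 peak. Replicate 2 had a peak with a q of at most 0.01 at 2 of the 10 Notch genes, Rbpj and Notch3, against 3.71% of all protein-coding genes, 4.74% of those of 20 to 100 kb and 9.39% of those of 100 kb and over. The shares for shorter genes were 2.39% (5 to 20 kb) and 1.19% (under 5 kb).

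**Figure D2:**
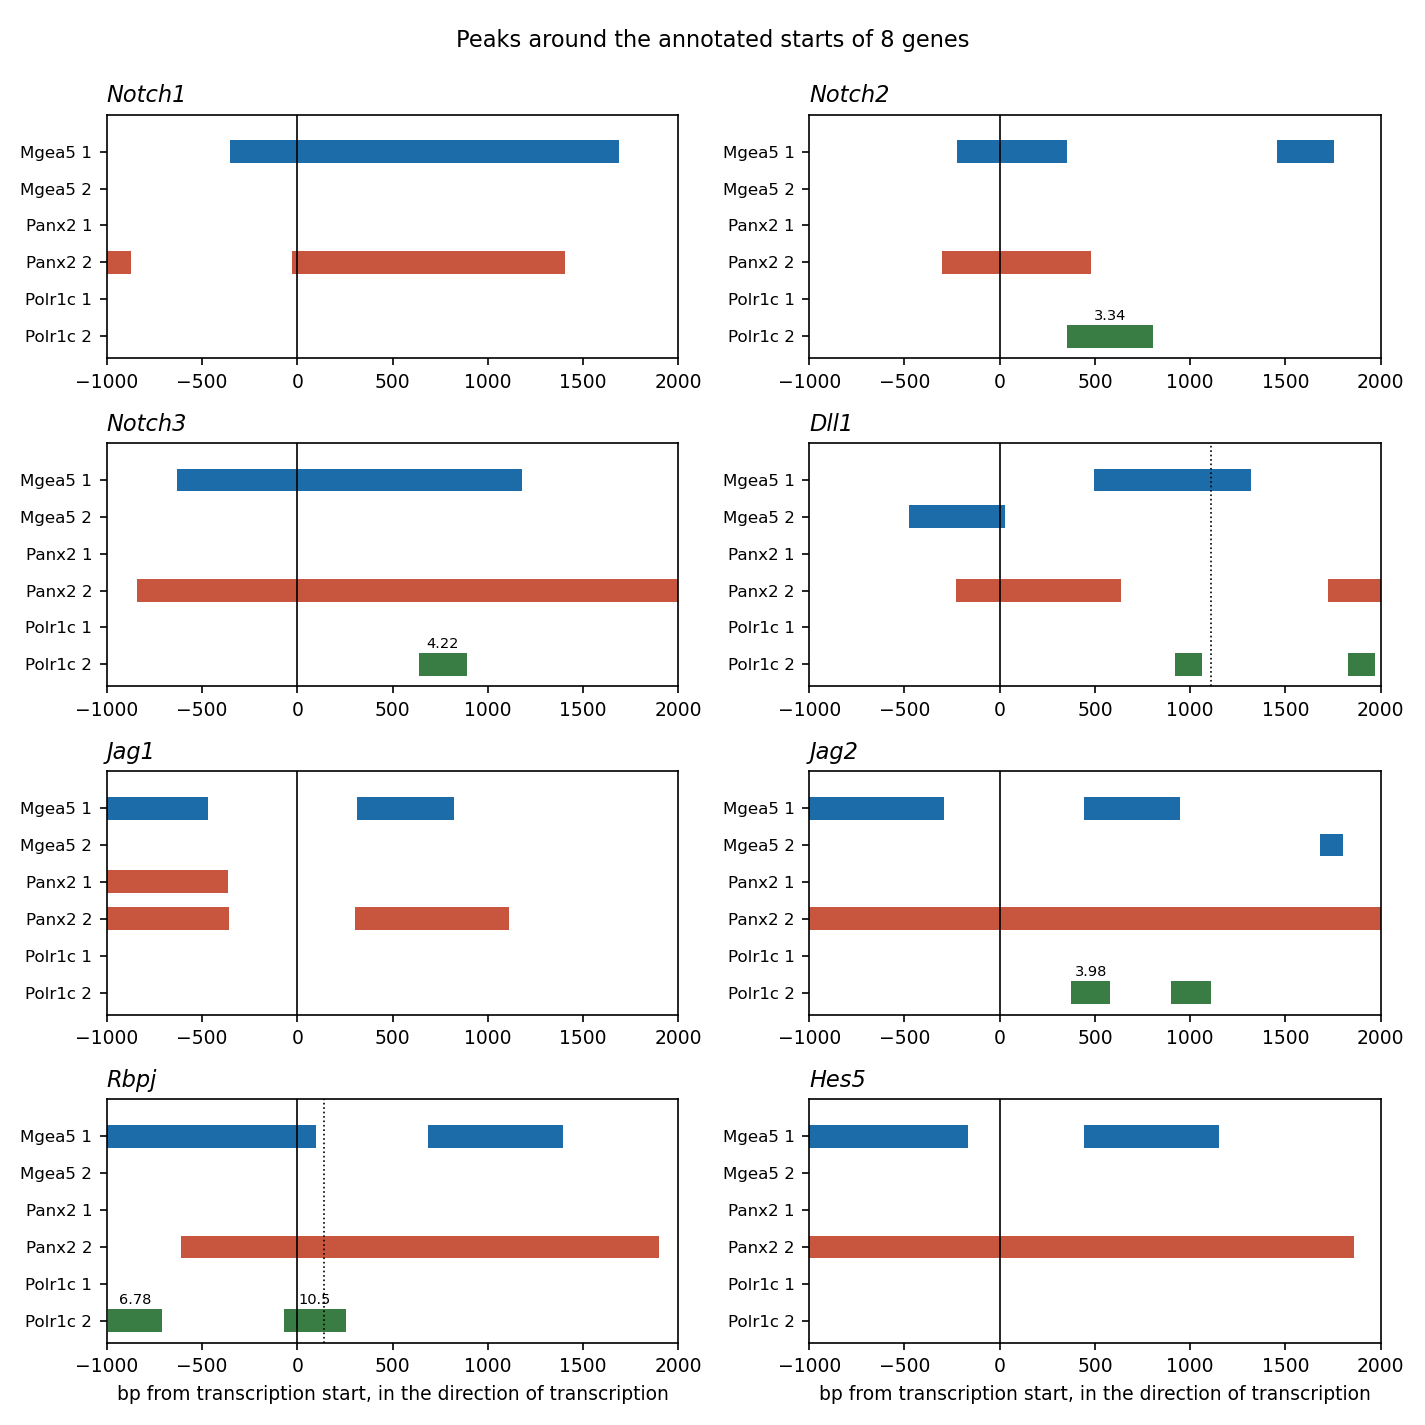
Peaks of the 6 lists from 1000 bp before to 2000 bp after the annotated start (solid line at 0, dotted line a second start) of the 8 Notch genes in the promoter table, with distance in bp in the direction of transcription on the horizontal axis and list on the vertical axis. Numbers give the fold of peaks of at least 3. Polr1c replicate 2 peaks lie at Rbpj (10.5 and 6.78), Notch3 (4.22), Jag2 (3.98) and Notch2 (3.34), and Mgea5 replicate 1 and Panx2 replicate 2 have peaks around every start.

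The 3 target genes carried no Polr1c peak in either replicate, and their Mgea5 and Panx2 folds were at most 2.54. Of protein-coding genes under 5 kb, the class of all 3, 0.377% had a Polr1c peak in replicate 1 and 11.7% in replicate 2, so the absence is that of most short genes. Hes1 (chr16:30065357-30067796) encodes the repressor whose level oscillates in neural progenitors. Its highest folds were 1.83 and 1.61 for Mgea5 and 2.12 for Panx2 in replicate 2. Its nearest Polr1c peak in replicate 2 was 17.6 kb away, with a fold of 3.63. Hes5 (chr4:154960626-154962372) had a Mgea5 fold of 1.77 in replicate 1 and no Mgea5 peak in replicate 2, where the nearest began 1341 bp beyond the gene, just outside the window. A single Panx2 replicate 2 peak of 4702 bp (fold 2.09) covered the whole gene. Hey1 (chr3:8663359-8667038), which encodes a related repressor, had Mgea5 folds of 1.86 and 2.02 and a Panx2 fold of 2.54 in replicate 2. Its highest Mgea5 peak of replicate 2 and its highest Panx2 peak both lay beyond the high-coordinate end of the gene, where the gene model LOC115489673 overlaps Hey1. Panx2 replicate 1 had no peak at any of the 3 targets.

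Set against genes of like length, the Notch genes had no common rank for Mgea5. The highest Mgea5 fold at Notch1, Jag1, Jag2, Notch2 and Rbpj in replicate 1 was at or above that of only 9.71% to 19.8% of the genes in the same length class, genes with no peak counted as 0. In the same list Notch3 stood at 87.3%, Hey1 at 81.8% and Hes1 at 78.3%. In replicate 2 Notch3 stood at 32.9% and Hey1 at 96.2%, and Rbpj moved from 9.72% to 64.3%. Hes1 fell from 78.3% to 54.8% and Jag2 from 19.8% to 6.79%, and Hes5 stood at 67.8% in replicate 1 and had no peak in replicate 2. The genes that changed least were Notch1 (9.78% and 7.79%), Jag1 (9.71% and 9.42%), Notch2 (19.3% and 24.4%) and Dll1 (60.0% and 61.3%). In Panx2 replicate 1 Notch3 stood at 96.7%, while Jag1 (50.4%), Notch1 (46.8%), Rbpj (45.4%) and Notch2 (40.2%) stood near or below the middle of their classes. For Panx2 replicate 2, Hey1 (95.4%), Dll1 (93.4%) and Jag2 (92.9%) ranked highest, and Rbpj (29.3%) lowest. In Polr1c replicate 2 Rbpj stood at 99.8%, Notch3 at 97.9% and Jag2 at 97.3% of their classes, while Dll1 stood at 81.3%, Notch2 at 59.3% and Notch1 at 56.9%. The Polr1c fold of 3.34 at Notch2 is thus common among genes of its length.

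**Figure D3:**
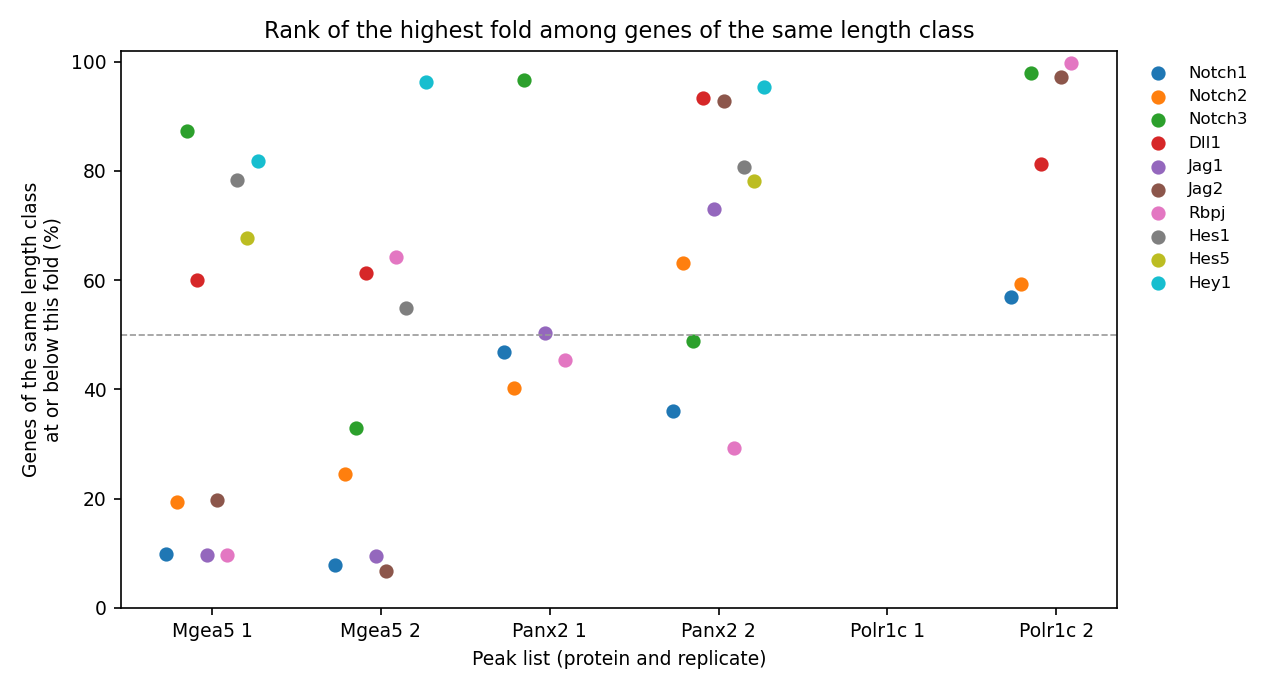
Share of protein-coding genes of the same length class (vertical axis, %) whose highest fold is at or below that of each Notch gene, by peak list (horizontal axis). Each point is a gene with a peak in that list, and the dashed line marks 50%. Rbpj, Notch3 and Jag2 lie above 97% in Polr1c replicate 2, and in Mgea5 replicate 1 the points run from 9.71% to 87.3%.

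Replicates of Mgea5 shared positions at 9 of the Notch genes, most of them in long genes. Stretches where a peak of each replicate overlapped by at least 1 bp numbered 61, of which 19 were in Notch2, 17 in Rbpj, 10 in Notch3 and 9 in Jag1. The rate was 14.4 stretches per 100 kb of gene window, against 10.2 over all protein-coding genes. The geometric mean fold of the 61 stretches ran from 1.48 to 2.04 with a median of 1.67. The highest were in Notch3 (chr17:32148849-32149004, folds 2.26 and 1.85), Rbpj (chr5:53626333-53626510, 1.89 and 1.97) and Notch2 (chr3:98119968-98120013, 1.79 and 2.06). Of the replicate 1 peaks in the Notch genes, 38.5% overlapped a replicate 2 peak, against 38.0% over all protein-coding genes, and of the replicate 2 peaks 49.6% against 41.0%. None of the 61 stretches lay within 1 kb of an annotated start of the 8 genes that have one in the promoter table. The matching share of stretches over all genes was not counted.

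Shared Panx2 stretches numbered 10, in Rbpj and Notch2 (3 each) and in Jag1 and Notch1 (2 each). The site upstream of Jag1 had the highest geometric mean fold, 2.18, followed by 2 in Rbpj, at chr5:53656884-53657078 (folds 1.83 and 2.12) and chr5:53580671-53580712 (1.83 and 2.11). All 10 had a deposited −log10 q of 0 in replicate 1. They took in 9 of the 20 replicate 1 peaks (45%, against 33.5% over all genes) and 10 of the 139 replicate 2 peaks (7.19%, against 8.69%). When each list was kept to the same length, 3 Panx2 stretches were left. For Polr1c there was no shared stretch, and the rate over all protein-coding genes was 0.0151 per 100 kb.

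Starts of the Notch genes showed opposite patterns in replicates of the same protein. Of the 8 Notch genes in the promoter table, which has no entry for Hes1 and Hey1, all 8 had a Mgea5 peak within 1 kb of a start in replicate 1 and only Dll1 had it in replicate 2. Of the 5953 protein-coding genes with at least 22 CpG in a promoter, the fewest of any of the 8, 88.8% and 61.3% had a Mgea5 peak there. For Panx2 the order was the reverse, with Jag1 alone in replicate 1 and all 8 in replicate 2, against 13.9% and 94.9% of such genes. Polr1c replicate 2 had a peak there at 5 genes (Rbpj, Notch2, Notch3, Dll1 and Jag2), and replicate 1 at 0, against 27.2% and 0.706%. All 5 had a peak in the 1 kb after a start, and Rbpj and Dll1 also had a peak in the 1 kb before.

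The promoters of these genes are rich in CpG, and in Mgea5, in Panx2 replicate 2 and in Polr1c replicate 2 peaks near starts were more frequent at high than at low CpG. The promoter of each Notch gene with the most CpG held 22 (Jag1) to 63 (Jag2) of them in 300 bases. Over the 10 promoters of the 8 genes the median was 25.5, against 13 over all protein-coding promoters, and the median GC content was 67.7% against 56.3%. Against this background the counts of 8 of 8 for Mgea5 replicate 1 and Panx2 replicate 2, and of 1 of 8 for Panx2 replicate 1, are near those of CpG-rich genes in general. The count of 1 of 8 for Mgea5 replicate 2 is below its share of 61.3%, and that of 5 of 8 for Polr1c replicate 2 is above its share of 27.2%, and neither was tested.

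**Figure D4:**
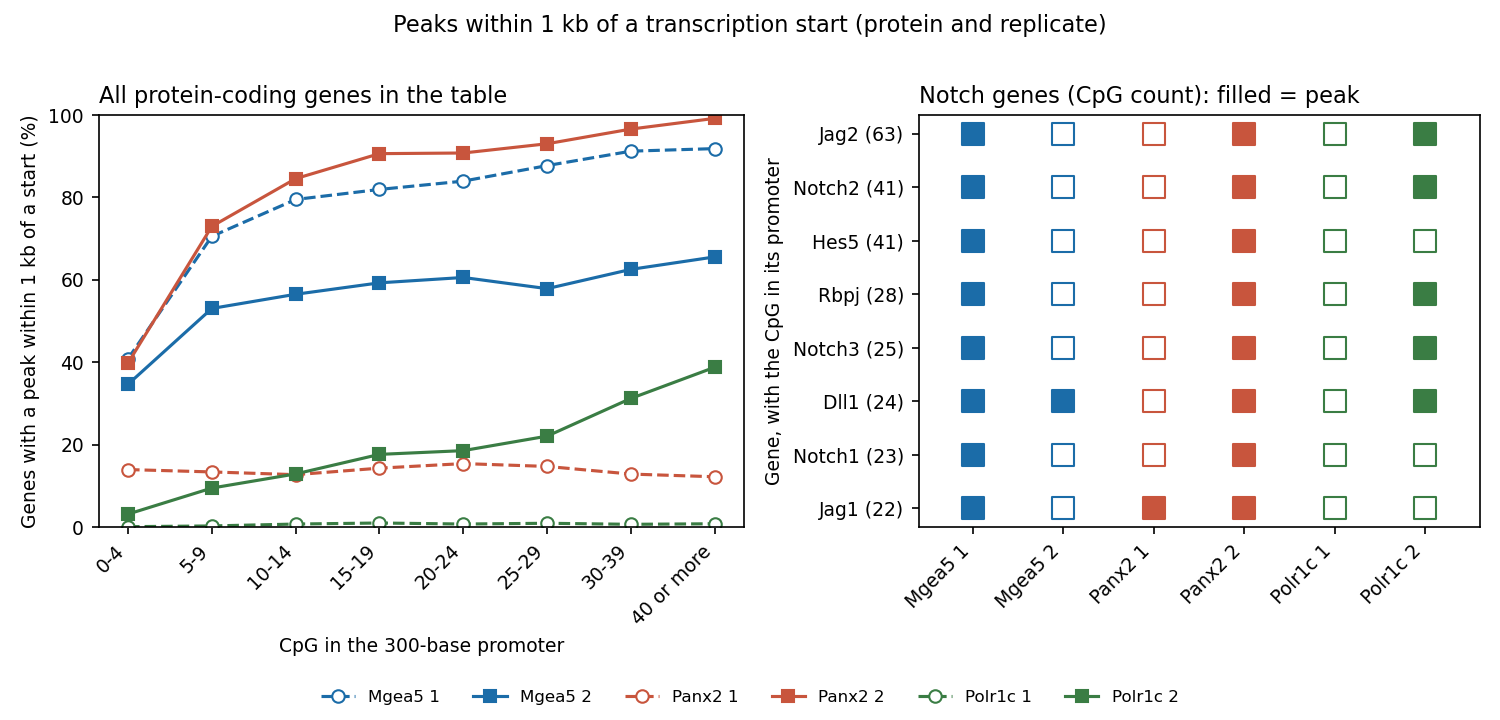
Left, share of protein-coding genes (vertical axis, %) with a peak within 1 kb of an annotated start, by number of CpG in the 300-base promoter (horizontal axis), for each list. Right, the 8 Notch genes in the table with their CpG counts, a filled square marking a peak within 1 kb of a start in that list. The shares rise with CpG in Panx2 replicate 2 (39.8% to 99.2%), Mgea5 replicate 1 (40.8% to 91.9%) and Polr1c replicate 2 (3.14% to 38.8%), and stay between 12.2% and 15.4% in Panx2 replicate 1.

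Polr1c peaks at the Notch genes were set against the peaks of the other lists, counting any overlap of at least 1 bp. Of the 22 Polr1c replicate 2 peaks, 15 overlapped a Mgea5 replicate 1 peak (68.2%, against 50.5% of the 20670 such peaks in protein-coding genes) and 12 a Panx2 replicate 2 peak (54.5%, against 52.1%, close to that of genes in general). Mgea5 replicate 2 overlapped 4 (18.2%, against 32.8%) and Panx2 replicate 1 overlapped 0 (6.24%). The 22 peaks lie in 6 genes. As given above, the covered share of the windows differs between the Notch genes and all genes (28.4% against 17.5% in Mgea5 replicate 1). The overlaps were not adjusted for it. The Rbpj promoter peak overlapped a peak of Mgea5 replicate 1 (fold 1.68) and 1 of Panx2 replicate 2 (1.86). The upstream Rbpj peak overlapped only that same Mgea5 replicate 1 peak. Which input served as control for which list is not known here.

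The promoter motifs known for repressors of the HES and HEY kind were also counted, on both strands. CACGNG, a class C E-box, was found in 6 of the 10 promoters of the Notch genes (60%, against 31.4% of protein-coding promoters), in Notch2, Notch3, Jag1, Jag2 and both of Dll1. This motif itself holds a CpG, these promoters are rich in CpG, and the 31.4% was not matched for CpG. CACNAG, the N-box, was found in 4 (40%, against 41.9%). TATAAA was found in 0, against 12.6%. CACGAG fits both CACGNG and CACNAG and was counted under each, and a match is a description of the window, not a site.

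Of 57 further genes of the pathway, 53 had Mgea5 peaks of both replicates, 44 Panx2 peaks and 3 Polr1c peaks, against 82%, 57.1% and 1.28% of all protein-coding genes. Long genes carry such peaks more often, as given above, and the counts by role were not adjusted for length. By role, Mgea5 peaks of both replicates were at all 14 nuclear cofactor genes and all 5 further HES and HEY genes. They were also at all 5 further ligand genes, all 4 ligand endocytosis genes and the 1 further receptor gene. Signal attenuation had them at 8 of 9 genes, receptor glycosylation at 5 of 6 and the proneural genes at 3 of 4. Of the 9 genes of receptor cleavage 8 had them, and Psenen of the γ-secretase complex lacked a peak in replicate 2. Of all protein-coding genes of 20 to 100 kb 95.7% had them, and of those of 100 kb and over 99.6%. Panx2 peaks of both replicates were at 13 of 14 cofactor genes, most of them 20 kb or longer, where 82.5% (20 to 100 kb) and 97% (100 kb and over) of genes had them. They were at 1 of 4 proneural genes, all under 5 kb, where 14.3% had them. By geometric mean over both replicates, the highest Mgea5 folds were at Kdm5a, a histone demethylase gene (2.35 and 2.16), Dner, a gene of a Notch-binding membrane protein (2.19 and 2.26), and Maml3 (2.19 and 2.24). By the same mean, those for Panx2 were at the acetyltransferase gene Kat2b (2.0 and 3.85), Numbl, a relative of the Notch inhibitor Numb (1.76 and 4.02), and Fbxw7, whose protein marks the Notch intracellular part for degradation (2.63 and 2.64). Within single lists other genes ranked higher than some of these, such as Crebbp in Mgea5 replicate 1 (2.36) and in Panx2 replicate 2 (3.23). These rankings were not adjusted for gene length either. Dner (326383 bp) held 101 and 110 Mgea5 peaks and Maml3 (418000 bp) held 140 and 141. Eogt, named after its values were seen, as was Psenen, encodes an enzyme that adds O-GlcNAc to extracellular repeats of Notch receptors, and it had folds of 1.99 and 1.98 for Mgea5, 1.90 and 2.31 for Panx2 and 2.75 for Polr1c in replicate 2.

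The 3 further genes with Polr1c peaks of both replicates were Hes7, Maml2 and Maml3. Hes7 encodes the oscillating repressor of the segmentation clock, and its highest Polr1c folds were 7.11 (q = 4.56e-08) in replicate 1 and 4.59 (q = 1.37e-09) in replicate 2. These peaks overlapped the tRNA gene n-TGgcc5 (chr11:69118794-69118864), which ends just before Hes7 begins at 69118906, and a second pair of peaks at the other end of Hes7 overlapped the tRNA gene n-TLtag3. Transfer RNA genes are transcribed by RNA polymerase III, and the window of Hes7 takes these genes in. Maml2, a Mastermind coactivator gene, had a site inside the gene at chr9:13534139-13534932 in replicate 1 (fold 6.15, q = 4.56e-20), which overlapped one of fold 4.24 in replicate 2. Maml3 had highest folds of 2.76 in replicate 1, with a deposited −log10 q of 0, and 4.58 in replicate 2. The latter peak (q = 4.19e-14) covered an annotated start. Maml3 is 418000 bp long and held 15 Polr1c peaks in replicate 2. Spen, a corepressor gene that binds RBPJ, had a Polr1c peak in replicate 2 alone (fold 3.80, q = 1.72e-08). For Panx2, replicate 2 had peaks with a q of at most 0.01 at Numbl (q = 0.00387), Kat2b (0.00508) and Crebbp (0.00883), and for Mgea5 neither replicate had any. Of all protein-coding genes, 0.905% had such a peak in Panx2 replicate 2, and 0.429% and 0.498% in Mgea5 replicates 1 and 2. These shares were not split by gene length, and Kat2b and Crebbp are longer than 100 kb.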

How the data were processed

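ChIP-seq peak lists of Mgea5, Panx2 and Polr1c (2 replicates each) were analysed. Trim Galore, Bowtie2 2.3.5, MACS3 3.0.0a5 and mm10 are named in the submitters' processing notes, while the control, cut-offs and duplicate filters were not stated there. Each peak carries a fold (a ratio of ChIP to background) and a −log10 p and −log10 q, as deposited by the authors. The labels do not say whether the replicates are separate cultures, so their spread may be technical. Peaks on 21 main chromosomes were set against gene coordinates and promoters of RefSeq GRCm38.p6 (the coordinates of mm10), which gave starts and strands for 8 of the 10 genes and no exons. A gene counted with a peak when 1 bp overlapped the gene body and 1000 bp on either side, and stated q values are 10 to the minus deposited −log10 q. All 10 genes were named, with the further genes that had the 3 highest geometric mean folds per protein or a q of at most 0.01. The members and lists were chosen with earlier results of these data known, and counts are given without tests. The CpG comparison, the overlaps of the strongest Polr1c peaks with replicate 1 and the nearest outside peaks were added after values were seen. The overlap code was tested on simulated data. Alternatives changed threshold, list length, overlap, window and replicates. Python 3.11.15, pandas 2.3.3 and numpy 2.4.6 were used.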

Additional observations from a re-analysis of the deposited data

How the results depend on the processing

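Most counts kept within 1.5 times their value under other windows and overlap rules. With a −log10 q of at least 2, Mgea5 and Panx2 each had 0 Notch genes, 0 further pathway genes and 0 shared stretches with peaks of both replicates. With gene ends alone, the Panx2 counts were 2 Notch genes, 19 further genes and 3 stretches, the Mgea5 stretches numbered 5, and 1 further gene had Polr1c peaks of both replicates. With lists of equal length 3 Panx2 stretches were left, and 4 of the 40 highest folds per gene had no peak, those of Polr1c replicate 2 at Jag2, Notch2, Dll1 and Notch1. Leaving out a replicate gave 9 to 10 Notch genes for Mgea5, 5 to 10 for Panx2 and 0 to 6 for Polr1c, and 53 to 57, 44 to 57 and 3 to 36 further genes. A highest fold per gene counted as moved when it changed by at least the spread between replicates. Where the other replicate had no peak, any change counted as moved. Gene ends alone moved 11 values, left 24 and removed 5. Among those removed was the Polr1c value of 10.5 at Rbpj, whose annotated starts lie inside the gene record. Gene body alone moved 4, left 34 and removed 2. No paired analysis was possible because the results come from no test. Whether the short Polr1c replicate 1 list bears on the lack of shared Polr1c peaks at the Notch genes was not tested. The depth behind each list is unknown.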
